A study of Mus musculus with 42 samples.

Results

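The genes described here are 9 genes known for their activity in fat tissue, followed through 42 subcutaneous tumors. They are Adipoq, Cfd, Lep, Plin1, Cidec, Fabp4, Car3, Pparg and Lpl. They were picked from the 26811 identifiers of the count table by name, and the choice was made with their pattern across these same tumors already known, so every level and fold change of these 9 genes below is a description and carries no p-value. In the main fits, any count of the 9 past the threshold applied to all genes is printed beside the share of all genes. For most alternative fits that share is not given. Nothing is read from any of these counts. All 9 passed the filter on low counts, which kept 16932 genes. A wider list of 51 other adipocyte genes was drawn up from their roles in the fat cell, and 38 of them passed the same filter.

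MC38, a colon carcinoma line of C57BL/6 origin, was grown under the skin of female F1 mice from a cross of CC075/UncJ with C57BL/6J (CC75xB6), aged 8 to 12 weeks, after injection of 500000 cells. All mice were of this single cross. The isotype control group (n = 5) received matching isotype antibodies only, and the aPD1 group (n = 6) received 1 dose of 200 µg of an antibody against the checkpoint receptor PD-1. The aPD1 + aGMCSF group (n = 9) had in addition 100 µg of an antibody that blocks the cytokine GM-CSF, the aPD1 + aIL2RB group (n = 11) had 200 µg of an antibody against the IL-2 receptor beta chain, and the aPD1 + aGMCSF + aIL2RB group (n = 11), the triple combination, had both. Blocking antibodies or their isotypes were given at regular intervals from engraftment. The aPD1 or isotype dose followed once a tumor measured 75 to 110 mm3, and the whole tumor was taken 48 h later for bulk poly(A) RNA sequencing, so any host tissue taken along with a tumor is part of its sample. Totals ran from 7155464 to 24101643 counts per tumor. Values are CPM, the usual depth-scaled count, computed on TMM-adjusted library sizes, and 3 counts, used as the detection floor, equal 0.122 to 0.395 CPM depending on the tumor, a limit that covers counting error only. Genes that mark colon epithelium were low for tumors of a carcinoma line, with the summed level of 6 of them (Krt8, Krt18, Krt19, Epcam, Vil1, Cdh1) between 0.527 and 28.7 CPM, and Vil1 at 0 in 13 tumors.

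White adipocytes hold their triglyceride in a single large droplet. Perilipin 1 (Plin1) coats that droplet and governs access of lipases to it, and Cidec drives fusion of droplets into one. Adipocytes also secrete hormones and factors, among them adiponectin (Adipoq), leptin (Lep) and adipsin (Cfd), the complement factor D. The nuclear receptor Pparg is the master regulator of fat cell formation, Fabp4 carries fatty acids through the cytoplasm, and lipoprotein lipase (Lpl) frees fatty acids from circulating lipoproteins. Car3, a carbonic anhydrase, is abundant in fat and also in skeletal muscle. Pparg, Fabp4 and Lpl are made by macrophages too, and Fabp4 by capillary endothelium. In a bulk tumor, fewer cells of a type and less RNA per cell cannot be told apart.

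The proximal promoters of 4 of the genes are shown because those genes are closely tied to the fat cell and each window holds a match to the pattern TTGNNCAA of the C/EBP type, the family of factors that acts with Pparg in adipocytes. Sequences are RefSeq windows of 300 bases on GRCm38.p6, 250 bases before to 50 after the start, 5′ to 3′ on the gene's strand, with the match in capitals. The pattern, with N for any base, reads the same on both strands. Adipoq is chr16:23146286-23146585 on the plus strand, with the match beginning 11 bases before the start site. Plin1 is chr7:79732727-79733026 on the minus strand, with the match 58 bases before. Lep is chr6:29059971-29060270 on the plus strand, 55 bases before. Cidec is the window of its second annotated start, chr6:113434715-113435014 on the minus strand, 198 bases before.
Adipoq: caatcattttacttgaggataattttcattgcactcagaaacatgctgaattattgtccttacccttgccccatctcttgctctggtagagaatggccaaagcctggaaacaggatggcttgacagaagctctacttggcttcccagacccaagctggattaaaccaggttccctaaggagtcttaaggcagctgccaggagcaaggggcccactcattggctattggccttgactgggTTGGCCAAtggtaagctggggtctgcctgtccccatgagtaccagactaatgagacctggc
Plin1: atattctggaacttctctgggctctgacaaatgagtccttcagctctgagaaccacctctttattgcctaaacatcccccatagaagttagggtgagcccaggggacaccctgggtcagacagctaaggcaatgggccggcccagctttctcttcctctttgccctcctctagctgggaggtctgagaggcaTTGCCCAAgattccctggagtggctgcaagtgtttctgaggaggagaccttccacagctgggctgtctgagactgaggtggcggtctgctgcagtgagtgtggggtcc
Lep: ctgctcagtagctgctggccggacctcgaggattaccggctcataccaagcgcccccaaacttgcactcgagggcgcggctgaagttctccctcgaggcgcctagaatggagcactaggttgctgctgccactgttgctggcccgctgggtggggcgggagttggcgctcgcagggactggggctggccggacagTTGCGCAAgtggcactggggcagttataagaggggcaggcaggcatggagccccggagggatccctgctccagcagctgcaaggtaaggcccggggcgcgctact
Cidec: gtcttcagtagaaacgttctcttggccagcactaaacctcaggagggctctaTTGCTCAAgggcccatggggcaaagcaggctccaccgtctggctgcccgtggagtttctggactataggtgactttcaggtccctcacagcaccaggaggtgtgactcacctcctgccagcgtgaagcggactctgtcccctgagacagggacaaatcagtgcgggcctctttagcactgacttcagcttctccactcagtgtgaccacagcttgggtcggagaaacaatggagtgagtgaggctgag

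RefSeq windows matched 6 of the 9 genes by symbol and gave 9 promoters, of which 4 held TTGNNCAA, the 4 printed above. The same letters occurred in 6.40% of all 32851 promoters of this length. The core AGGTCA of nuclear receptor sites, searched on both strands, occurred in 2 of the 9 and in 16.3% of all, and TATAAA, also on both strands, in 1 of the 9 and in 13.6% of all. These are counts of letters and not of bound sites. Car3, Fabp4 and Lpl were not in the promoter table.

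In GRCm38, Adipoq (ENSMUSG00000022878) is at chr16:23146536-23158028, Cfd (ENSMUSG00000061780) at chr10:79890853-79892655, Lep (ENSMUSG00000059201) at chr6:29060220-29073877, Plin1 (ENSMUSG00000030546) at chr7:79720218-79732903 and Cidec (ENSMUSG00000030278) at chr6:113424634-113435760. Fabp4 (ENSMUSG00000062515) is at chr3:10204088-10208576, Car3 (ENSMUSG00000027559) at chr3:14863512-14872523, Pparg (ENSMUSG00000000440) at chr6:115360951-115490399 and Lpl (ENSMUSG00000015568) at chr8:68880491-68907448. No annotated exon of another gene overlapped their exons, so their reads have no overlapping neighbour to be shared with.

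The adipocyte genes were low in most tumors. Per kilobase of annotated exon, the mean level over the 42 tumors was highest for Fabp4, at 4.75 CPM per kb, followed by Cfd at 2.93, Car3 at 2.43 and Lpl at 1.29 CPM per kb. Pparg followed at 0.832, Adipoq at 0.518, Cidec at 0.465, Plin1 at 0.0999 and Lep at 0.0750 CPM per kb. The droplet gene Plin1 and the hormone Lep were the lowest of the list. Ucp1, the uncoupling protein that defines brown fat, was at 0 in 37 of the 42 tumors, and the summed level of 8 genes of the brown fat list, of which 3 passed the filter, was 2.60 to 10.1 CPM.

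The levels of 6 of the 9 genes parted by replicate number within the treatment groups. Earlier work on these libraries had shown that, in every treatment group, the tumors with lower numbers (isotype control 1 and 2, aPD1 1 to 3, aPD1 + aGMCSF 1 to 5, and 1 to 6 of both groups with aIL2RB, 22 tumors) parted in expression from those with higher numbers (20 tumors). The labels do not name what, if anything, the division stands for. Since it was itself read from expression in these libraries, the comparison between the lower-numbered and higher-numbered tumors is also given with no p-value.

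Among the secreted factors, Adipoq had a lowest, median and highest level of 0, 0.121 and 1.81 CPM in the lower-numbered tumors and of 0, 1.05 and 3.00 CPM in the higher-numbered. It was at 0 in 8 of the 22 and in 1 of the 20. The 2 ranges overlapped. The highest lower-numbered tumors were aPD1 replicate 3 (1.81 CPM) and isotype control replicate 2 (1.37 CPM), and the lowest higher-numbered tumors were 2 of the aPD1 + aIL2RB group, at 0 and 0.180 CPM. Cfd ran from 0.120 through a median of 0.817 to 4.93 CPM in the lower-numbered and from 0.848 through 3.70 to 10.1 CPM in the higher-numbered tumors. The 4.93 CPM was again isotype control replicate 2. Lep, the hormone that reports fat mass to the brain, was at 0 in 12 of the 22 lower-numbered tumors, with a highest level of 0.364 CPM, and at 0 in 1 of the 20 higher-numbered, with a median of 0.381 and a highest level of 1.203 CPM.

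The lipid droplet genes parted in the same direction. Plin1 had a median of 0.115 CPM (0 to 0.527) in the lower-numbered tumors, 8 of them at 0, and of 0.666 CPM (0.302 to 1.89) in the higher-numbered, none of them at 0. Cidec had a median of 0.256 CPM (0 to 1.83) against 1.01 CPM (0.257 to 3.37). Fabp4, the most abundant of the 9, had a median of 15.4 CPM (4.86 to 23.2) against 25.1 CPM (19.97 to 47.2). The Fabp4 ranges met only between 19.97 and 23.2 CPM.

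The remaining 3 genes overlapped over most of their range. Car3 had a median of 4.85 CPM (0.720 to 44.0) in the lower-numbered and of 5.27 CPM (1.60 to 28.5) in the higher-numbered tumors. Pparg had a median of 2.01 CPM (0.852 to 4.50) against 2.11 CPM (0.821 to 7.12), and Lpl of 10.5 CPM (3.71 to 22.9) against 12.6 CPM (5.61 to 47.5).

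**Figure D1:**
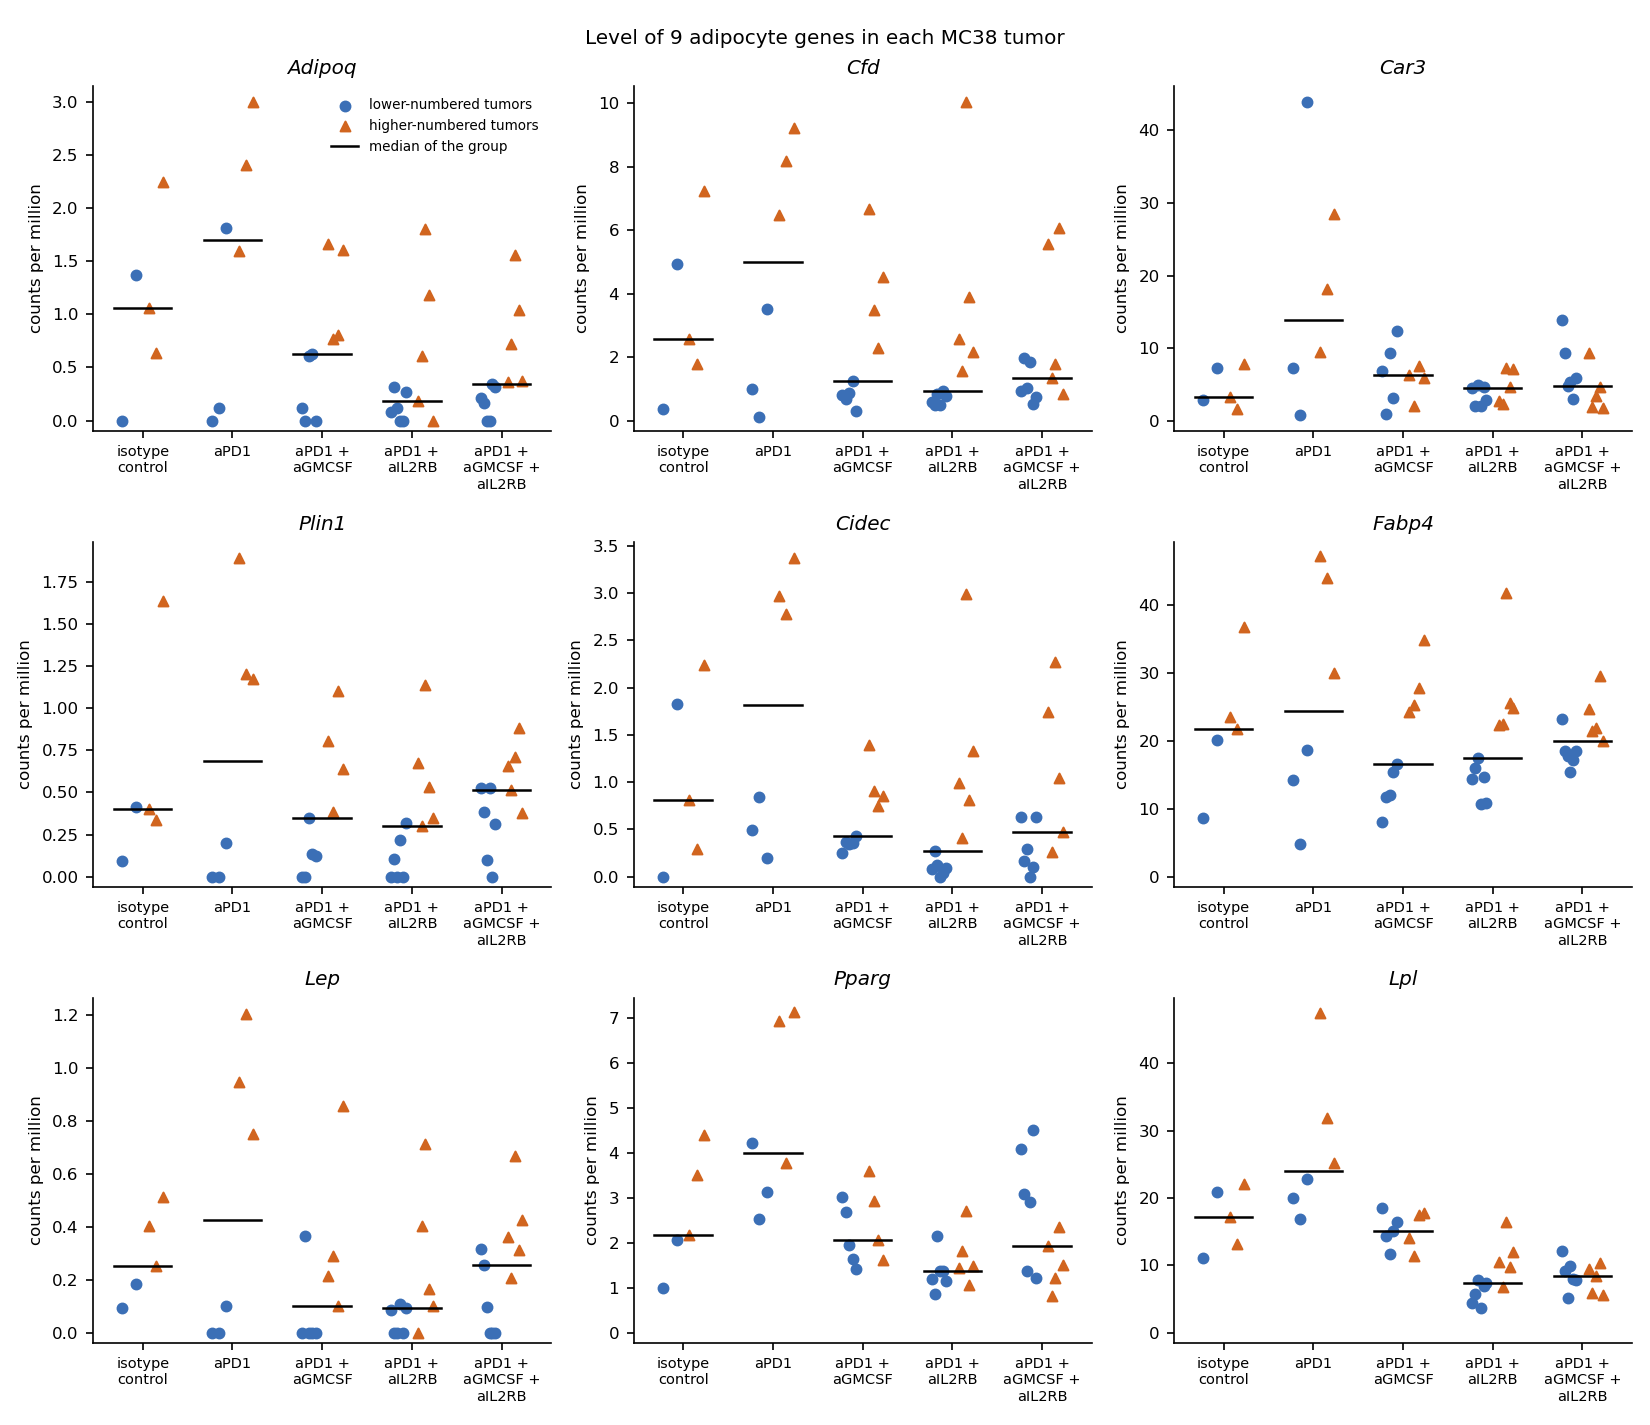
Level of each of the 9 genes in every tumor by treatment group, in CPM on linear axes that differ between genes. Circles are lower-numbered tumors, triangles higher-numbered tumors, and bars group medians. Every higher-numbered tumor sits above every lower-numbered one in 4 of the 5 groups for Fabp4, in 3 for Cfd and Cidec, in 2 for Adipoq, Plin1 and Lep, in 1 for Pparg and Lpl and in 0 for Car3.

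With the treatment group held in the model, the log2 fold change of higher-numbered over lower-numbered tumors (edgeR, ± SE) was 2.28 ± 0.45 for Lep, 2.15 ± 0.38 for Plin1, 2.03 ± 0.36 for Cidec, 1.94 ± 0.43 for Adipoq and 1.94 ± 0.30 for Cfd. It was 0.94 ± 0.13 for Fabp4. It was 0.34 ± 0.13 for Lpl, 0.19 ± 0.19 for Pparg and -0.15 ± 0.30 for Car3. In this comparison 25.1% of all genes tested were past an adjusted p of 0.05 in either direction and 13.6% of all genes tested were past it with a higher level in the higher-numbered tumors. Of the 9 genes 7 were past it, all higher. Since the division came from these libraries, nothing is read from that count.

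The treatment groups differed in how fully the 2 sets parted. In the isotype control group, the lower-numbered replicate 2 was above 2 of the 3 higher-numbered tumors for Adipoq, Cfd, Plin1 and Cidec. Every higher-numbered tumor was above every lower-numbered one of its group in 4 of the 5 groups for Fabp4, an arrangement that 0.142% of all genes showed in at least 4 groups. For Cfd and Cidec it held in 3 groups (1.04% of all genes in at least 3), and for Adipoq, Plin1 and Lep in 2 groups (5.25% in at least 2). It held in 1 group for Pparg and for Lpl, and in 0 for Car3.

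The relation of Adipoq, Cfd, Plin1, Cidec, Lep and Fabp4 to each other was then taken within each set of tumors. Among the 22 lower-numbered tumors, Pearson's r over their 15 pairs, on log2 CPM, ran from 0.03 to 0.61 with a median of 0.32. Among the 20 higher-numbered tumors it ran from 0.41 to 0.80 with a median of 0.62. Such values are descriptions, since the tumors differ in treatment and depth and the lowest genes hold few counts. Of Adipoq, Cfd, Plin1, Cidec and Lep, all 5 had at least 1 count in 5 of the 22 lower-numbered and in 18 of the 20 higher-numbered tumors. Their summed level had a median of 1.44 CPM (0.566 to 8.72) in the former and 6.79 CPM (2.50 to 17.5) in the latter.

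Markers of other cell types were measured beside this division, in which 25.1% of all genes were past the threshold. Of 12 endothelial genes, 1 was past the threshold higher and 3 lower in the higher-numbered tumors, with summed levels of 185 to 310 CPM in the lower-numbered and 176 to 295 CPM in the higher-numbered tumors. Of 15 skeletal muscle genes 4 were lower and 0 higher, and of the 10 adipose stroma genes (Pdgfra, Dpp4, Pi16 and others) 1 was higher and 1 lower. Of 12 macrophage genes 1 was higher and 2 lower, and of 7 leukocyte genes 0 were higher and 3 lower. Of the red cell genes tested, 4 of 4 were higher, with summed levels of 13.7 to 653 CPM against 28.8 to 961 CPM, and of the colon epithelium genes tested, 4 of 5 were higher, with 0.527 to 8.88 CPM against 3.87 to 28.7 CPM. Their part in the difference of the adipocyte genes was not tested.

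Of the 38 other adipocyte genes tested, 12 were past the threshold higher and 4 lower in the higher-numbered tumors, 42.1% beside 25.1% of all genes. These counts describe a division that came from the same libraries, on a list chosen with earlier results known, and nothing is read from them. The 6 with the largest fold change were all higher. They were Pck1, which feeds glycerol synthesis (log2 fold change 2.32 ± 0.43), the adipokine resistin (Retn, 1.90 ± 0.52), the droplet protein Plin4 (1.46 ± 0.23), the retinol carrier Rbp4 (1.26 ± 0.44), Gpd1 (0.97 ± 0.30), which makes glycerol 3-phosphate, and the transcription factor Klf15 (0.90 ± 0.32). Plin4 had a median of 1.64 CPM (0.283 to 4.07) in the lower-numbered and 4.63 CPM (1.32 to 10.4) in the higher-numbered tumors. Over all 38 genes the median log2 fold change was 0.07.

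The genes whose level across the 42 tumors was most like that of Fabp4, among 13673 genes compared by Pearson's r on log2 CPM, were Hp (0.93), Plin4 (0.84), Lrg1 (0.75), Ube2g2 (0.71) and Plin2 (0.71). Haptoglobin (Hp), a plasma protein that binds free haemoglobin, kept r = 0.84 among the lower-numbered and 0.87 among the higher-numbered tumors, and Plin4 kept 0.66 and 0.75. The genes most like Adipoq began with Rab5if and Plin4 (both 0.71), and Anxa3, Agpat1, Trmt61a, Grwd1, Eif1, Tcof1 and Fosl1 (0.67) were also among the leading 10. Plin4 kept r = 0.42 and 0.58 with Adipoq inside the 2 sets, whereas Rab5if had 0.68 and 0.19 and Eif1 had 0.75 and -0.04. An r over all 42 tumors therefore also holds the step between the sets.

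**Figure D2:**
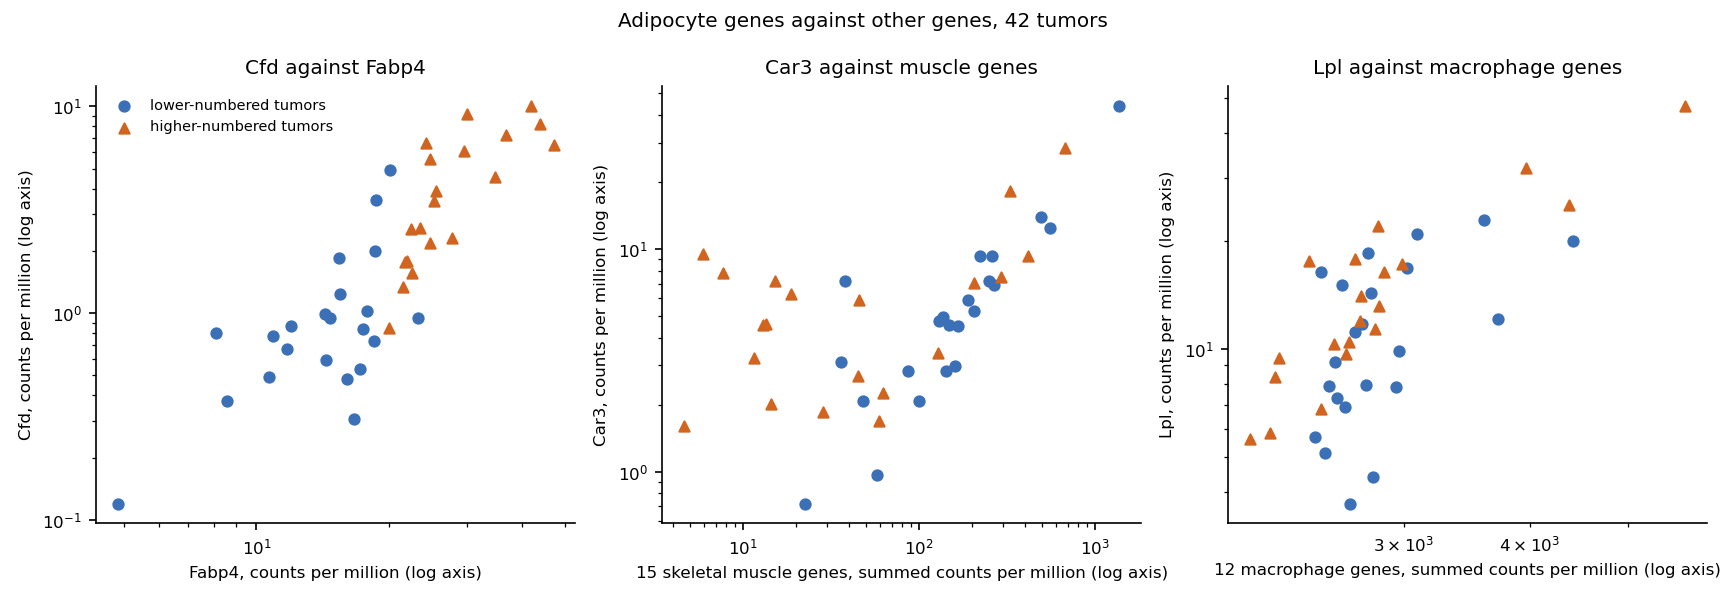
Each point is 1 of the 42 tumors on log axes in CPM, for Cfd against Fabp4, Car3 against the sum of 15 skeletal muscle genes, and Lpl against the sum of 12 macrophage genes. Cfd and Fabp4 rise together with the higher-numbered tumors (triangles) at the upper end, Car3 is highest (44.0 CPM) in the tumor with the highest muscle sum (1374 CPM), and Lpl is highest (47.5 CPM) in the tumor with the highest macrophage sum (5700 CPM).

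The second question was whether the adipocyte genes followed treatment. Group means of the secreted and droplet genes were highest under aPD1 for all 6 of them, and for Adipoq, Cfd, Plin1, Cidec and Lep the standard deviations there were close to the means. Adipoq was 1.06 ± 0.836 CPM (SD, n = 5) in the isotype control group, 1.49 ± 1.21 under aPD1 (n = 6), 0.688 ± 0.621 under aPD1 + aGMCSF (n = 9), 0.415 ± 0.578 under aPD1 + aIL2RB (n = 11) and 0.462 ± 0.472 under the triple combination (n = 11). Its 5 isotype control tumors measured 0, 1.37, 1.06, 0.633 and 2.24 CPM. The 6 aPD1 tumors ran from 0 through a median of 1.70 to 3.00 CPM, so the groups overlapped over the whole isotype control range. Cfd was 3.38 ± 2.72, 4.76 ± 3.796, 2.32 ± 2.17, 2.22 ± 2.81 and 2.06 ± 1.92 CPM in the same order of groups. No neighbouring pair in the order of the Adipoq or Cfd means was apart by more than both standard deviations.

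Plin1 was 0.576 ± 0.606 CPM in the isotype control group, 0.745 ± 0.789 under aPD1, 0.393 ± 0.385 under aPD1 + aGMCSF, 0.330 ± 0.347 under aPD1 + aIL2RB and 0.453 ± 0.259 under the triple combination. Cidec was 1.03 ± 0.969, 1.78 ± 1.41, 0.629 ± 0.378, 0.648 ± 0.894 and 0.690 ± 0.722 CPM, and Lep was 0.289 ± 0.169, 0.500 ± 0.532, 0.202 ± 0.281, 0.151 ± 0.219 and 0.239 ± 0.209 CPM. Fabp4 was the most even, at 22.2 ± 10.1, 26.5 ± 16.9, 19.6 ± 8.90, 20.1 ± 8.92 and 20.8 ± 4.03 CPM. Its 6 aPD1 tumors held both the lowest level of all, 4.86 CPM in replicate 2, and the highest, 47.2 CPM in replicate 4. In the aPD1 + aIL2RB group, replicate 9 had the highest level of Cfd (10.1 CPM), Fabp4 (41.9 CPM) and Cidec (2.99 CPM).

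The remaining genes were Lpl, Pparg and Car3. Lpl was 16.9 ± 4.73 CPM in the isotype control group, 27.4 ± 11.1 under aPD1, 15.2 ± 2.57 under aPD1 + aGMCSF, 8.28 ± 3.65 under aPD1 + aIL2RB and 8.33 ± 2.16 under the triple combination. The isotype control tumors measured 11.1, 20.9, 17.2, 13.2 and 22.05 CPM. The lowest, median and highest level were 16.9, 24.01 and 47.5 CPM under aPD1, 11.4, 15.1 and 18.5 CPM under aPD1 + aGMCSF, 3.71, 7.29 and 16.4 CPM under aPD1 + aIL2RB and 5.14, 8.37 and 12.1 CPM under the triple combination. All tumors of both aIL2RB groups lay below all aPD1 tumors, which held for no other of the 9 genes. Of all genes, 2.99% were placed so under aPD1 + aIL2RB and 0.827% under the triple combination.

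Pparg was 2.62 ± 1.33 CPM in the isotype control group, 4.61 ± 1.96 under aPD1, 2.32 ± 0.757 under aPD1 + aGMCSF, 1.505 ± 0.533 under aPD1 + aIL2RB and 2.27 ± 1.23 under the triple combination. The aPD1 tumors ran from 2.52 through 3.99 to 7.12 CPM and the aPD1 + aIL2RB tumors from 0.852 through 1.37 to 2.70 CPM, with a small overlap. The step from the isotype control group to aPD1 was larger than either standard deviation for Pparg, and the step from the triple combination to aPD1 + aGMCSF was for Lpl. No other neighbouring means of the 9 genes were apart by more than both.

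Car3 was 4.54 ± 2.80 CPM in the isotype control group, 18.01 ± 15.96 under aPD1, 6.05 ± 3.62 under aPD1 + aGMCSF, 4.08 ± 1.87 under aPD1 + aIL2RB and 5.72 ± 3.72 under the triple combination. The aPD1 mean rested on few tumors. Replicates 1 to 6 of that group measured 7.20, 0.720, 44.0, 9.47, 18.2 and 28.5 CPM, so that it held both the lowest and the highest Car3 level of all 42 tumors.

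In the edgeR fit over all 42 tumors, the median log2 fold change of the 9 genes was 0.70 for aPD1 over the isotype control. It was largest for Car3 (1.99 ± 0.59), followed by Pparg (0.82 ± 0.36), Cidec (0.78 ± 0.84), Lep (0.78 ± 0.95) and Lpl (0.70 ± 0.26), and smallest for Fabp4 (0.26 ± 0.37). Of the 9 genes 1, Car3, was past the threshold, beside 8.71% of all genes, and it was past it in 37 of the 42 fits that left out 1 tumor. With the replicate number as a block 0 of the 9 were past it. Here and below, that block does not hold the sets constant. The same number can be lower-numbered in 1 group and higher-numbered in another. Among the lower-numbered tumors alone 0 of the 7 that could be fitted were past it, beside 0.0115% of all genes, and among the higher-numbered alone 2 of 9. The share of all genes is not given for the block or the higher-numbered tumors. As the 9 were chosen on these tumors, nothing is read from these counts. Without aPD1 replicate 4 the Plin1 fold change went from 0.39 to -0.17. On leaving out 1 tumor Lep ran from 0.36 to 1.08, Fabp4 from 0.01 to 0.52 and Cidec from 0.46 to 1.28. Adipoq ran from 0.16 to 0.96 and Cfd from 0.19 to 0.98. Among the lower-numbered tumors alone, Adipoq (-0.06), Fabp4 (-0.18), Cfd (-0.76) and Cidec (-0.84) lay on the other side of 0, while Car3 (1.79), Pparg (1.10) and Lpl (0.31) did not. Among the higher-numbered tumors alone all 9 were above 0, from 0.57 for Fabp4 to 2.16 for Car3.

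The 3 comparisons of a blocked group with aPD1 share the same 6 aPD1 tumors, and so does the one with the isotype control, so the direction of 1 bears on the others. Against aPD1 alone, the median log2 fold change of the 9 genes was -1.03 with aGMCSF added, -1.62 with aIL2RB added and -1.21 with both. In each of the 3, the genes past the threshold were Car3, Pparg and Lpl, 3 of 9 beside 13.5%, 27.4% and 27.4% of all genes. In the same order, 3, 5 and 3 of 9 were past it with the lower or higher set as a term. With the replicate number as a block it was 3, 7 and 6 of 9. Among the lower-numbered tumors alone it was 0, 3 and 1 of 7, with 0.155% of all genes beside the 0 and 15.6% beside the 3. Among the higher-numbered alone it was 3, 4 and 4 of 9, with 22% of all genes for aIL2RB added. The share of all genes is not given for the other alternative fits. As the 9 were also chosen on these tumors, nothing is read from those counts. Lpl was at -0.85 ± 0.22, -1.73 ± 0.21 and -1.72 ± 0.22, Pparg at -0.997 ± 0.31, -1.62 ± 0.30 and -1.04 ± 0.30, and Car3 at -1.58 ± 0.48, -2.14 ± 0.46 and -1.66 ± 0.46. Adipoq was at -1.10 ± 0.81, -1.82 ± 0.78 and -1.63 ± 0.78, and Fabp4 at -0.44 ± 0.32, -0.40 ± 0.31 and -0.35 ± 0.31. On leaving out 1 tumor Fabp4 ran from -0.65 to -0.19, from -0.62 to -0.15 and from -0.57 to -0.10.

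For Lpl the difference between aPD1 + aIL2RB and aPD1 was of like size in the lower-numbered tumors (-1.74) and in the higher-numbered (-1.67), and for Pparg it was -1.29 and -1.83. Fabp4 was at 0.15 in the former and -0.57 in the latter. For the triple combination over aPD1, Pparg was at -0.20 among the lower-numbered and -1.96 among the higher-numbered tumors, and among the lower-numbered Lpl was at -1.20 and Fabp4 at 0.55. Against the isotype control, Lpl was at -1.03 ± 0.23 under aPD1 + aIL2RB and at -1.02 ± 0.23 under the triple combination. It was the 1 gene of the 9 past the threshold in each, beside 3.2% and 10.2% of all genes. With the replicate number as a block 4 of the 9 were past it in each. Among the lower-numbered tumors alone 1 and 0 of 7 were, and among the higher-numbered alone 0 and 2 of 9. The share of all genes is not given for these alternative fits, and nothing is read from these counts. For aPD1 + aGMCSF edgeR had 0 of 9 and 0 of all genes past it, with 938 of all genes at an unadjusted p under 0.05, and DESeq2 had 3 higher and 1 lower of all genes. Against aPD1 + aGMCSF, Lpl was at -0.87 ± 0.20 with aIL2RB in its place (1.52% of all genes) and at -0.87 with both (2.13%).

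**Figure D3:**
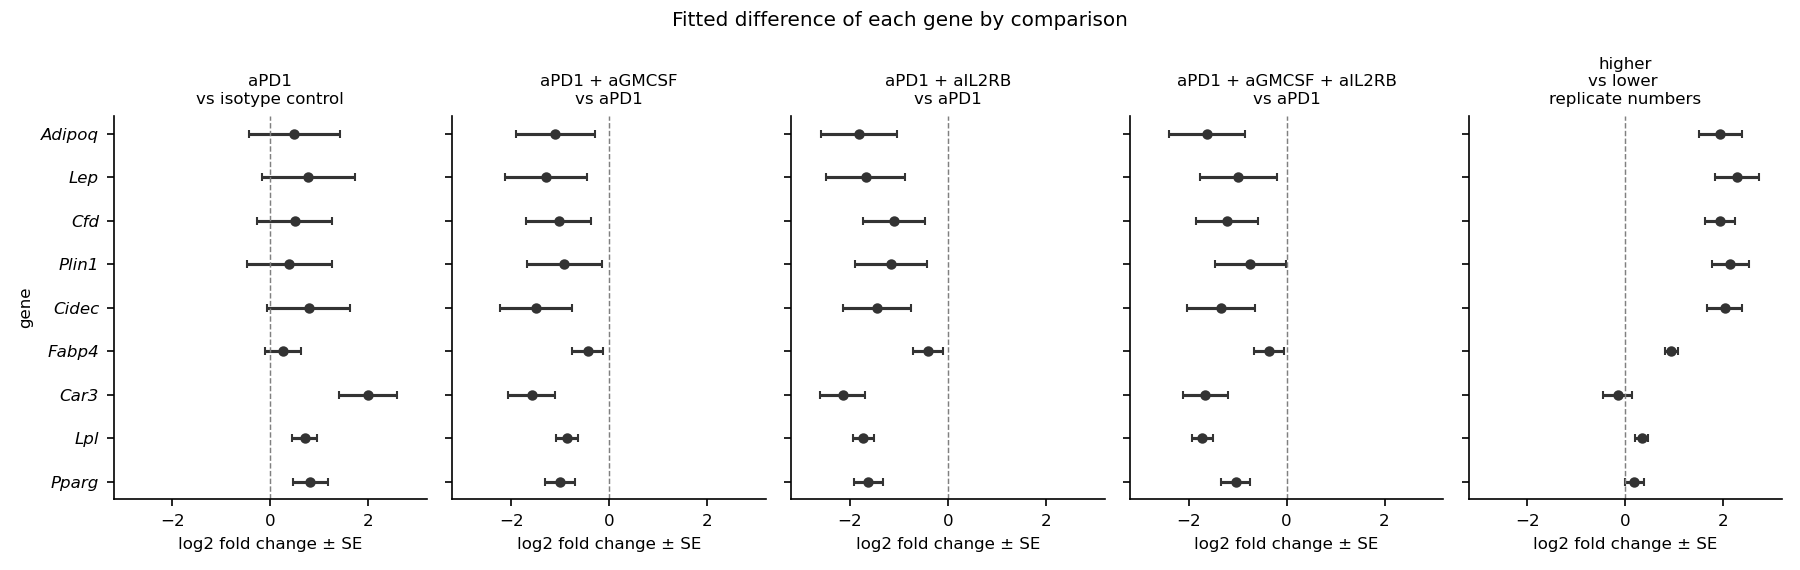
Fitted log2 fold change of each of the 9 genes in 5 comparisons, with bars of 1 SE on each side and a dashed line at 0. All 9 genes lie below 0 in the 3 comparisons with aPD1, nearest to it for Fabp4 (-0.44, -0.40 and -0.35), and between higher-numbered and lower-numbered tumors Lep, Plin1, Cidec, Adipoq and Cfd lie at 1.94 to 2.28.

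Car3, Pparg and Lpl were set beside lists of other cells that make them. Of 15 skeletal muscle genes (Acta1, Ckm and others), 12 were past the threshold higher and 0 lower in aPD1 over the isotype control (8.71% of all genes in either direction), and 0 higher and 11 lower in aPD1 + aIL2RB over aPD1 (27.4%). In edgeR 0 of the 15 were past it in aPD1 + aGMCSF over aPD1 (13.5%), where all 15 lay below 0 with a median log2 fold change of -1.62 and 5 had an unadjusted p under 0.05, and 0 higher and 2 lower in the triple combination over aPD1 (27.4%), 2 comparisons in which Car3 was at -1.58 and -1.66. Their summed level ran from 4.60 to 86.1 CPM in the isotype control tumors and from 5.94 to 1374 CPM in the aPD1 tumors. The aPD1 tumor with the highest Car3, replicate 3, also had the 1374 CPM of muscle genes, and replicate 6 with 28.5 CPM of Car3 had 675 CPM, whereas replicate 4 with 9.47 CPM of Car3 had 5.94 CPM. Across the lower-numbered tumors r of log2 Car3 with the log2 muscle sum was 0.84, and 0.71 without the 2 tumors farthest from the median sum. Across the higher-numbered tumors it was 0.49, and 0.27 without 2. Car3 was also set beside the secreted and droplet genes. Among the higher-numbered tumors its r was 0.81 with Cidec, 0.79 with Cfd, 0.72 with Plin1 and 0.69 with Fabp4. With Adipoq and with Lep it was 0.43. Among the lower-numbered tumors, in the same order of genes, it was 0.12, 0.61, 0.41, 0.60, 0.39 and 0.06. Without aPD1 replicate 3 the Car3 fold change of aPD1 over the isotype control was 1.499 ± 0.58. The 5 genes most like Car3 across tumors, a listing added after its values were seen, were Myom1, Cyp1b1, Synpo2, Ttc7 and Actn3, of which Myom1 and Actn3 encode parts of the muscle sarcomere. The part of muscle in the Car3 values was not tested.

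Macrophage genes moved with the same comparisons. Of 12 of them (Adgre1, Csf1r, C1qa and others), 8 were past the threshold higher and 0 lower in aPD1 over the isotype control, beside 8.71% of all genes, and 0 higher and 8 lower in aPD1 + aIL2RB over aPD1, beside 27.4%. In aPD1 + aGMCSF over aPD1 0 were higher and 9 lower, beside 13.5%, and in the triple combination over aPD1 0 were higher and 8 lower, beside 27.4%. Their summed level was 2685 to 3091 CPM in the isotype control tumors, 3020 to 5700 under aPD1, 2420 to 2812 under aPD1 + aGMCSF, 2453 to 2947 under aPD1 + aIL2RB and 2112 to 3717 CPM under the triple combination. Lpl followed the macrophage sum with r = 0.53 among lower-numbered and 0.87 among higher-numbered tumors, and Pparg with 0.67 and 0.80. Pparg and Lpl followed each other with 0.53 and 0.80. Fabp4 followed the macrophage sum with 0.12 and 0.70 and the endothelial sum with 0.62 and 0.26, and Cfd followed the macrophage sum with 0.31 and 0.59. In the same order of sets, r with the macrophage sum was 0.37 and 0.61 for Car3, 0.28 and 0.58 for Cidec and -0.03 and 0.57 for Plin1. It was 0.13 and 0.48 for Lep and 0.13 and 0.44 for Adipoq. Between Lpl and Fabp4 r was -0.10 and 0.83. These points share treatment groups. The genes most like Pparg across tumors were Sirpb1a, Dok3, Gpsm3, Cd72 and Pik3ap1, and those most like Lpl were Tmsb4x, Nup210, Arhgdib, Acsl5 and Cotl1. Lpl ran against the summed adipose stroma genes, with r = -0.82 and -0.81. For Pparg r with that sum was -0.40 and -0.75, for Fabp4 0.35 and -0.67 and for Car3 -0.14 and -0.53. For Cfd it was -0.05 and -0.52, for Adipoq -0.26 and -0.52 and for Lep 0.14 and -0.48. For Plin1 it was 0.13 and -0.43 and for Cidec -0.39 and -0.31. The stroma sum was 418 to 501 CPM under aPD1, 520 to 656 under aPD1 + aIL2RB and 540 to 654 under the triple combination. The part of macrophages in the values of the 9 genes was not tested. Of the 6 epidermis genes tested, 2 were past the threshold higher in aPD1 over the isotype control (8.71% of all genes). Against aPD1, 2 were lower with aGMCSF (13.5%), 1 with aIL2RB (27.4%) and 5 with both (27.4%). The epidermis sum was 38.9 and 27.8 CPM in aPD1 replicates 2 and 3. Of 7 leukocyte genes 1 was higher in aPD1 over the isotype control, and 1, 4 and 4 were lower against aPD1. The part of these cells was not tested either.

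The other adipocyte genes were tested in the same fits. Their list was chosen with earlier results of these data known, a limit that holds for all its comparisons below. Several of them, among them Nr1h3, Cd36 and Acsl1, are also made by macrophages, whose genes moved in the same comparisons as given above, and the part of macrophages in their values was not tested. Skeletal muscle genes moved in some of these comparisons too, as given above, and the part of muscle in the values of the list was not tested. The tests gave p-values adjusted over all 16932 genes. Each judges a group difference against the spread between tumors, which in the main fit also holds the division by replicate number. In aPD1 over the isotype control, 4 of the 38 rose and 1 fell, 13.2% beside 8.71% of all genes. The insulin-regulated glucose transporter Slc2a4, which muscle makes too, rose by 3.54 ± 0.91 on the log2 scale (edgeR adjusted p = 0.0123), and the sterol receptor Nr1h3 by 1.33 ± 0.38 (adjusted p = 0.0233). The fatty acid activating enzyme Acsl1 rose by 0.60 ± 0.18 (adjusted p = 0.0309) and the phosphodiesterase Pde3b by 0.35 ± 0.11 (adjusted p = 0.0351), while malic enzyme Me1 fell by 0.27 ± 0.09 (adjusted p = 0.0408). Nr1h3 went from 3.22 ± 0.941 CPM (n = 5) to 8.15 ± 1.92 CPM (n = 6). None of the 5 passed among the lower-numbered tumors alone, where 0.0115% of all genes did. Slc2a4 passed whichever tumor was left out, Nr1h3 not without isotype control replicate 1 or 3 or aPD1 replicate 4 or 5, and Acsl1, Pde3b and Me1 not in 8, 7 and 9 of the 42 fits that left out 1 tumor. Pde3b and Me1 also did not pass among the higher-numbered tumors alone, with only the groups compared or with the looser filter, nor Pde3b with library size scaling. The median log2 fold change over all 38 was 0.12.

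With aGMCSF added to aPD1, 0 of the 38 rose and 4 fell, 10.5% beside 13.5% of all genes. Nr1h3 fell by 1.46 ± 0.32 (edgeR adjusted p = 0.00206), the fatty acid transporter Cd36 by 1.10 ± 0.30 (adjusted p = 0.0119), Acsl1 by 0.77 ± 0.15 (adjusted p = 8.41e-04) and hormone-sensitive lipase Lipe by 0.54 ± 0.16 (adjusted p = 0.0195). None of the 4 passed among the lower-numbered tumors alone, where 0.155% of all genes did. Without aPD1 replicate 4 Cd36 and Lipe did not pass, nor did Lipe without replicate 6.

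With aIL2RB added to aPD1, 2 of the 38 rose (Dgat2 and Insr) and 8 fell, 26.3% beside 27.4% of all genes. The 6 of largest change all fell. Gpd1 fell by 1.90 ± 0.51 (edgeR adjusted p = 0.00404), Nr1h3 by 1.66 ± 0.31 (adjusted p = 5.57e-05), Cd36 by 1.26 ± 0.29 (adjusted p = 8.06e-04), Acsl1 by 1.15 ± 0.15 (adjusted p = 2.97e-07), Lipe by 0.66 ± 0.15 (adjusted p = 0.00114) and the transcription factor Cebpa by 0.62 ± 0.17 (adjusted p = 0.00566). Acsl1 went from 52.2 ± 8.42 CPM to 23.5 ± 3.40 CPM. Acsl1, Cd36 and Nr1h3 passed under every alternative run, the lower-numbered (15.6% of all genes) and the higher-numbered tumors alone (22% of all genes) included. Gpd1, Lipe, Cebpa and Dgat2 did not pass among the lower-numbered tumors alone, Cebpa and Dgat2 also not with the replicate number as a block, Dgat2 not without aPD1 replicate 2, and Insr not among the higher-numbered tumors alone.

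With both blocking antibodies added, 1 of the 38 rose (Insr) and 9 fell, 26.3% beside 27.4% of all genes. Gpd1 fell by 1.47 ± 0.51 (edgeR adjusted p = 0.0253), Nr1h3 by 1.39 ± 0.31 (adjusted p = 6.01e-04), Acsl1 by 1.11 ± 0.15 (adjusted p = 5.83e-07), Cd36 by 1.08 ± 0.29 (adjusted p = 0.00407), Lipe by 0.81 ± 0.16 (adjusted p = 1.15e-04) and Cebpa by 0.57 ± 0.17 (adjusted p = 0.0111). Acsl1 and Insr passed under every alternative run. Nr1h3, Cd36, Lipe, Gpd1 and Cebpa did not pass among the lower-numbered tumors alone. Cd36 and Cebpa did not pass without aPD1 replicate 4, nor Gpd1 without aPD1 replicate 3, 5 or 6. Gpd1 and Cebpa did not pass with only the groups compared, nor Gpd1 among the higher-numbered tumors alone.

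**Figure D4:**
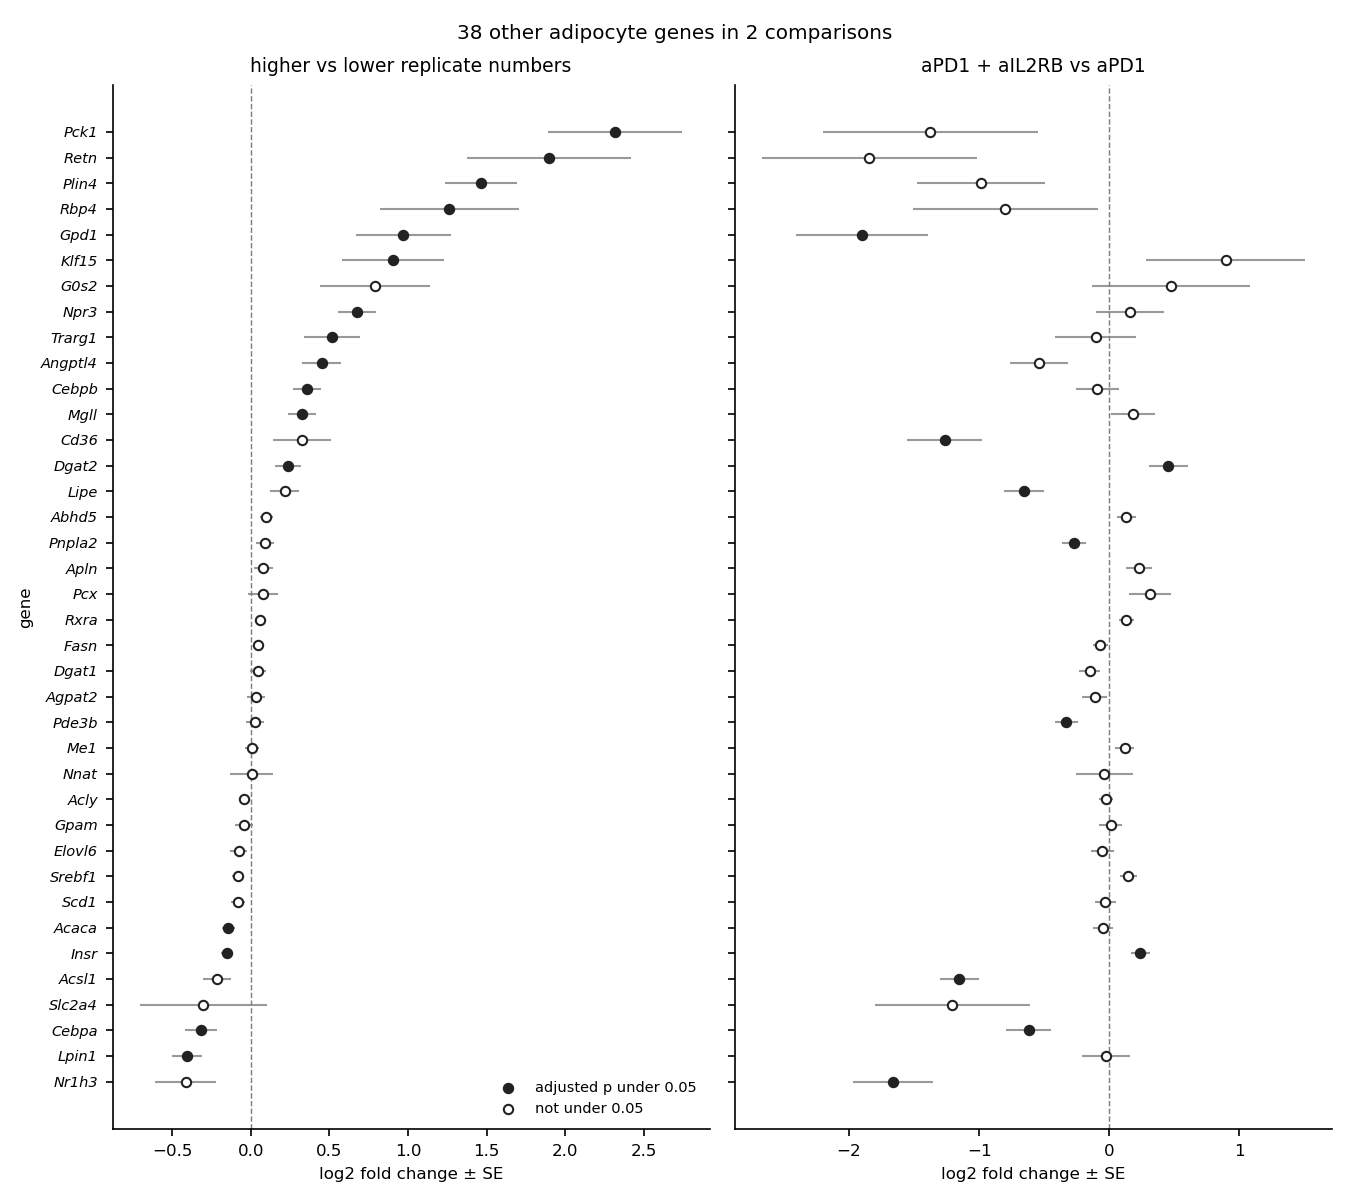
Log2 fold change with 1 SE on each side for the 38 other adipocyte genes, ordered by the difference between higher-numbered and lower-numbered tumors (left) and shown for aPD1 + aIL2RB over aPD1 (right). Filled points are past the threshold applied to all genes, 16 on the left, where this is a description only because the division came from these libraries, and 10 on the right.

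Among the remaining pairs of groups few of the 38 passed. Against the isotype control, Rxra rose and Acsl1 fell under aPD1 + aIL2RB (5.26% of the 38 beside 3.2% of all genes). Under the triple combination Slc2a4, Insr and Rxra rose and Acsl1 fell (10.5% beside 10.2%). Among the lower-numbered tumors alone 0 rose and 3 fell in both comparisons. Among the higher-numbered alone 1 rose and 0 fell in the former, and 3 rose and 3 fell in the latter. With the replicate number as a block 1 rose and 1 fell in the former, and 2 rose and 2 fell in the latter. Dgat2 and Rxra rose in aPD1 + aIL2RB over aPD1 + aGMCSF (5.26% beside 1.52%), but 0 passed there with the replicate number as a block or among the lower-numbered or the higher-numbered tumors alone. In edgeR 0 passed for aPD1 + aGMCSF over the isotype control, with 1 gene at an unadjusted p under 0.05, for the triple combination over aPD1 + aGMCSF, with 6, and for the triple combination over aPD1 + aIL2RB, with 1. DESeq2 called 0, 2 and 0. For the triple combination over aPD1 + aGMCSF, edgeR called 2 with the lower or higher set as a term, 1 with the replicate number as a block and 4 among the higher-numbered tumors alone. Shares of all genes are not given for the alternative fits in this paragraph, so nothing is read from their counts. For the triple combination over aPD1 + aIL2RB, 0.00591% of all genes passed in the edgeR fit over all tumors by treatment group. For the pairs of groups in this paragraph, the median log2 fold change of the 38 genes was between -0.02 and 0.02. This range holds for the edgeR fit over all tumors with treatment group as the only term, and not for the alternative fits.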

How the data were processed

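RNA from 42 MC38 tumors was sequenced as paired-end poly(A) libraries. The authors aligned reads with Bowtie 1.2.3 to transcriptomes of the Collaborative Cross founders (GENCODE, GRCm38) and deposited expected counts per gene, summed over haplotypes and not normalized. Since 15.2% of the deposited expected counts were not whole, they were rounded here. Of values from 1 to 20 in the 9 genes 97 of 127 (76.4%) were even, beside 63.2% of all whole values in that range, so 1 low count need not be 1 molecule.

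Symbols came from GENCODE M21, so a symbol may differ from the authors' annotation. Genes were kept with edgeR 4.0.16 filterByExpr (minimum count 10, minimum total 15), scaled by TMM (CPM too) and fitted with the quasi-likelihood test over all 42 tumors by treatment group, with Benjamini-Hochberg adjustment over 16932 genes and a threshold of 0.05. The lower-numbered and higher-numbered tumors were compared with the group as a term. Fold changes are on the log2 scale. Correlations used log2 CPM with a prior count of 2. No 2 tumors of a group agreed within sampling noise. The fit was tested on simulated data. Alternatives were DESeq2 1.42.0, library size scaling, a looser filter, only the groups compared, a replicate block, the lower-numbered or higher-numbered tumors as a term or alone, and leaving out each tumor.

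The genes and all lists were chosen with earlier results of these data known. Named genes are all 9 and the other adipocyte genes that passed. Where more than 6 passed, they are the 6 of largest fold change, with Dgat2 and Insr where those rose. The genes most like Adipoq (10), Fabp4, Pparg, Lpl and Car3 (5 each) are also named. Of these, 1 gene is not reported here.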

Additional observations from a re-analysis of the deposited data

How the results depend on the processing

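Depth limits Lep, Plin1 and Adipoq, which were near the floor of 3 counts in many tumors. The 9 genes kept their direction under the scaling, filter and DESeq2 alternatives. Among the lower-numbered tumors alone 4 genes changed sign in aPD1 over the isotype control, as given with the results, and Fabp4 did in the 3 comparisons with aPD1 (0.02, 0.15 and 0.55).

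The median log2 fold change of the 9 genes in aPD1 over the isotype control was 0.36 to 1.08 when each tumor was left out, and -0.06 among the lower-numbered tumors alone, where 7 genes could be fitted. Against aPD1 it was -1.30 to -0.83 for aPD1 + aGMCSF, -1.87 to -1.28 for aPD1 + aIL2RB and -1.48 to -0.91 for the triple combination, and 1.77 to 2.21 between the higher-numbered and lower-numbered tumors. Of the other adipocyte genes, 5 passed in aPD1 over the isotype control, and 3 with a minimum total of 5 counts, 2 with only the groups compared and 0 among the lower-numbered tumors alone, but 7 with DESeq2, with the lower or higher set as a term, and among the higher-numbered tumors alone. Leaving out 1 tumor gave 1 to 9, with 1 without isotype control replicate 1 or aPD1 replicate 4, 2 without isotype control replicate 4 or aPD1 replicate 1 or 5, 3 without isotype control replicate 2 or 3 or aPD1 replicate 6, and 9 without aPD1 replicate 2. For aPD1 + aGMCSF over aPD1, 4 passed, and 7 with only the groups compared, 0 among the lower-numbered and 8 among the higher-numbered tumors alone, with 2 to 8 on leaving out 1 tumor (2 without aPD1 replicate 4, 8 without aPD1 replicate 2). For aPD1 + aIL2RB over aPD1 10 passed, 4 among the lower-numbered alone and 9 to 12 on leaving out 1 tumor. For the triple combination over aPD1 10 passed, 2 among the lower-numbered alone and 7 to 11 on leaving out 1 tumor. The higher-numbered over lower-numbered count of 16 ran from 12 to 19. The cause was not tested. Shares of all genes are not given for most of these alternative fits, so nothing is read from their counts about the list. The analyses of the lower-numbered and of the higher-numbered tumors alone were chosen after seeing the data.

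Tumors with the same replicate number in different groups had a median correlation of deviations of 0.03 over 67 pairs, 16 of them over 0.1, so single numbers were not taken to pair the tumors across groups. Of 345 pairs from the same set of lower or higher numbers 107 were over 0.1, against 13 of 345 from different sets. With the number as a replicate block, the medians of the 9 genes were 0.49, -1.43, -1.95 and -1.83 for the 4 treatment comparisons in the order above, with Plin1 at -0.19 in the first of them. In these fits 5, 6, 11 and 10 other adipocyte genes passed. The share of all genes is not given for them, so nothing is read from those counts. Against the isotype control the block moved the medians from -0.51 to -1.48 for aPD1 + aGMCSF, from -0.78 to -1.89 for aPD1 + aIL2RB and from -0.35 to -1.25 for the triple combination. There, numbers 3 to 5 set higher-numbered isotype control tumors against lower-numbered tumors of the other group. Against aPD1, numbers 4 and 5 did so for higher-numbered aPD1 tumors, and in aPD1 over the isotype control number 3 did. Values from the block therefore also hold the difference between the sets, and nothing is read from the shift. With the lower or higher set as a term, the medians of the 9 genes for the 4 treatment comparisons were 0.46, -0.95, -1.49 and -0.98. Against the isotype control they were then -0.39 for aPD1 + aGMCSF, -0.79 for aPD1 + aIL2RB and -0.14 for the triple combination. In the last of these 4 of the 9 genes were above 0, against 1 in the main fit.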
